A study of Drosophila melanogaster with 81 samples.

Results

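H2BK16ac, the acetylation of lysine 16 of histone H2B, was compared between 2 ages of Drosophila melanogaster embryos that lack the histone gene cluster, by the positions of its CUT&Tag peaks. CUT&Tag uses an antibody to bring a transposase to a chromatin mark, so that DNA beside the mark is tagged and sequenced. The comparison rests on 2 deposited peak lists, with 12856 peaks at 4.5 to 5 h after egg laying and 12229 peaks at 5.5 to 6 h, out of 233093 peaks in the 26 lists read here. Each list stands for 2 libraries, so 4 of the 81 libraries of the series are behind it.

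The embryos, here called HisC, were homozygous for Df(2L)HisC, so that both copies of the histone cluster are deleted. One of their second chromosomes carries the driver P{GAL4-twi.2xPE} and the other the reporter P{UAS:eYFP}AH2, and the embryos were picked by the eYFP that the twist-element driver switches on. Both ages carry the same deletion and the same transgenes. Eggs were laid over 30 min at 25°C, and nuclei came from whole embryos, so a value mixes all cell types, and less of a mark per cell cannot be told apart from fewer cells that carry it. The comparison stock, w1118, has its histone genes, lacks both transgenes and was not selected for eYFP, and has 2 H2BK16ac libraries at each age. The lists hold positions only, with no height and no score, and 1 list per group. The depth is unknown, a difference between lists has no replicate check, and no test between the ages could be made. Exact binomial (Clopper-Pearson) 95% intervals are given for shares of peaks and cover counting error only.

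Histone tail acetylation removes the positive charge of lysines and is generally found where chromatin is open and transcribed. In mammals, acetylation of the H2B tail is laid down largely by CBP and p300 and marks active enhancers and promoters. In flies, the replication-dependent histones come from a tandem gene cluster on arm 2L. Embryos without it run on maternal histone until that store no longer suffices for S phase, and their cells stop dividing early while development goes on. These are background facts and not results of the lists.

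The mark covered less of the genome at the later age. Peaks spanned 12.35 Mb, or 9.0% of the chromosomes' length, at 4.5 to 5 h and 10.46 Mb, or 7.62%, at 5.5 to 6 h, a log2 ratio of −0.24. The median peak width was 736 bp at the earlier and 670 bp at the later age. A peak with no base of overlap in the other list was called lost when it came from the earlier list and gained when it came from the later list. By that rule 5038 earlier peaks were lost, or 39.2% (95% interval 38.3 to 40.0%). A further 4275 later peaks were gained, or 35% (34.1 to 35.8%). The kept peaks were 7818 in the earlier list and 7954 in the later one. The lists shared 5.65 Mb, which is 45.7% of the earlier covered length and 54.0% of the later. Peaks with no overlap were many in both lists, with more covered length in lost peaks (3.25 Mb) than in gained peaks (2.45 Mb). How much of this comes from peak calling rather than from a change in the mark was not tested. Neither age has a replicate list. With the earlier list cut to as many peaks as the later, keeping the widest, 4609 peaks were lost and 4463 gained. With the earlier list cut further to its 7820 widest peaks, which have the summed length of the later list, 2147 were lost and 6335 gained. A cut of the earlier list alone can only lower losses and raise gains, so it cannot show that the order depends on list length.

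Lost and gained peaks were narrower than kept ones. Their median widths were 502 bp and 438 bp, against 962.5 bp for kept peaks in the earlier list and 829.5 bp for kept peaks in the later list. Of earlier peaks under 400 bp, 37.5% were kept, of those of 1000 to 1499 bp 73.1%, and of those of at least 3000 bp 96.9%. In the later list the same shares were 43.9%, 80.1% and 97.1%. Only 75 lost and 30 gained peaks reached 2000 bp. The rule of 1 bp of overlap itself favours wide peaks as kept, since they have more room to meet a peak of the other list. How much of the trend with width comes from the rule was not tested. The lost peaks were mostly not shifted neighbours, since their median distance to the nearest later peak was 2875.5 bp and 6.57% lay within 500 bp of one. For gained peaks the median distance to the nearest earlier peak was 2723 bp, and 7.79% lay within 500 bp.

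**Figure D1:**
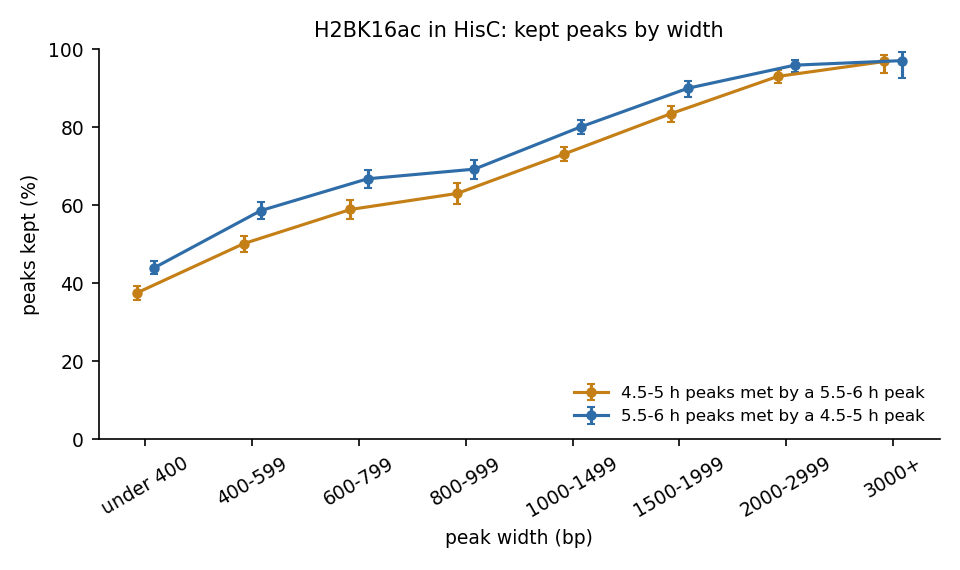
Share of H2BK16ac peaks of HisC (%, y axis) that overlap a peak of the other age, by peak width in bp (x axis), with 95% exact binomial intervals that cover counting error only. Both curves climb from under 50% for peaks below 400 bp to about 97.1% for the widest later peaks. The overlap rule itself favours wide peaks.

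The peaks that stayed were also narrower at the later age. Among 7283 pairs of peaks that each overlapped only the other, the median width was 943 bp earlier and 828 bp later, with a median log2 ratio of −0.11. The later peak was narrower in 4176 pairs and wider in 3089. It was at least 1.5-fold narrower in 2191 pairs and at least 1.5-fold wider in 1434. Pairs on the X chromosome stood apart from that, with 323 narrower and 336 wider later peaks, while arm 2R had 1080 narrower and 681 wider. The 2 widest kept peaks of the earlier list and the 3 widest of the later list lay between genes near the base of arm 3R. The widest of the later list spanned 11652 bp (3R, 293124 to 304775, dm6), of which 9763 bp were covered earlier. The widest of the earlier list spanned 9037 bp (3R, 210364 to 219400), of which 8990 bp were covered later. Some lists of other marks have a widest peak of similar length. It spanned 11643 bp for H3K4me3 of HisC at the later age, and 11618 bp for H2AK9ac of w1118 at the earlier age. Whether those peaks lie at the same place was not checked, so these wide peaks cannot be read as particular to H2BK16ac.

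Most H2BK16ac peaks lay inside genes, away from the gene ends. Judged by the middle of the peak, 63.2% of lost, 71.0% of kept earlier and 65.0% of gained peaks lay in a gene more than 500 bp from its ends, where 55.8% of the genome's length lies. Within 500 bp of a gene end lay 13.4% of lost, 12.5% of kept and 15.0% of gained peaks, close to the 14.7% of length found there. Between genes lay 23.4% of lost peaks, 16.5% of kept and 19.9% of gained peaks, against 29.5% of length. The H3K4me3 lists of the same genotype, a mark of promoters, had 33.2% and 33.1% of their peaks at gene ends at the 2 ages. The gene table used has no strand, so a start and an end of a gene could not be told apart, nor exons from introns.

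The X chromosome went the other way from the autosomes. On the X the mark had 1094 peaks over 970 kb at 4.5 to 5 h and 1441 peaks over 1201 kb at 5.5 to 6 h, a log2 ratio of covered length of 0.31. On the large autosomal arms together it covered 11268 kb earlier and 9153 kb later, a log2 ratio of −0.30. Each arm was lower at the later age, with log2 ratios of −0.36 on 2L, −0.34 on 2R, −0.23 on 3L and −0.28 on 3R. The small chromosome 4 had 58 and 66 peaks and a log2 ratio of 0.21, and the Y had 71 and 61 peaks and a log2 ratio of −0.29. The difference between the X and the arms was not tested, since each age has 1 list.

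The opposite directions were spread along the chromosomes. Of 229 X segments of 100 kb with a peak at either age, 167 had more covered length later. On the autosomal arms 262 of 1084 such segments did. Of the later X peaks, 50.5% were gained (95% interval 47.9 to 53.1%), against 30.1% to 34.6% on the autosomal arms. The X held 17% of all gained peaks and 7.5% of all lost peaks. It remained sparsely covered for its size: 4.12% of its length was covered earlier and 5.10% later, while on the autosomal arms the covered share was 10.4% and then 8.42%. The sex of the embryos is not given in the labels.

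**Figure D2:**
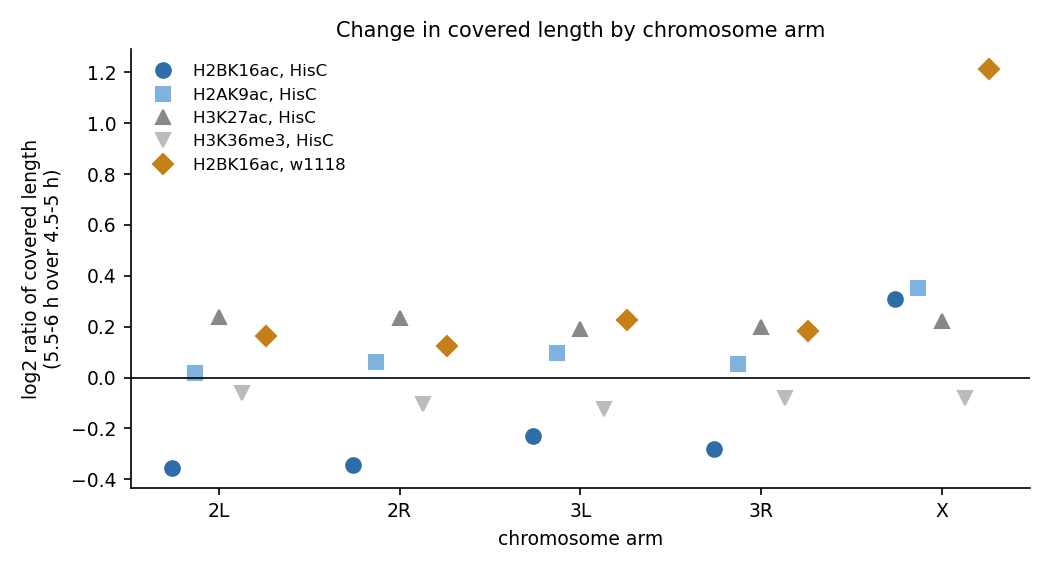
log2 ratio of covered length, 5.5 to 6 h over 4.5 to 5 h (y axis), for each large chromosome arm (x axis) and 5 comparisons, 1 point per pair of lists with no replicate error. H2BK16ac of HisC is below 0 on the 4 autosomal arms (−0.23 to −0.36) and above 0 on the X (0.31), and H2BK16ac of w1118 has its highest point on the X (1.21).

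The same contrast of X and autosomes was present, in part, in the lists most like these. In w1118, X peaks of H2BK16ac numbered 770 at the earlier and 1866 at the later age, with log2 ratios of covered length of 1.21 on the X and 0.17 on the autosomal arms. In HisC, H2AK9ac, an acetylation of the H2A tail, had log2 ratios of 0.35 on the X and 0.06 on the arms. Its lists stand for 2 libraries earlier and 3 later, while each H2BK16ac list stands for 2. H3K27ac, an acetylation of active enhancers and promoters, had 0.22 and 0.21 in HisC. H3K36me3, a methylation of transcribed gene bodies, had −0.08 and −0.09, and H3K27me3, the Polycomb mark, had 0.26 on each. H3K4me3 of HisC had 0.42 on the X and 0.23 on the arms, but in w1118 it had 0.06 and 0.04. H2AK9ac of w1118, with 3 libraries earlier and 2 later, had 0.95 on the X and 0.07 on the arms. The acetylations of H2A and H2B in both genotypes, and H3K4me3 in HisC, thus showed a higher ratio on the X than on the arms. The H3K27ac, H3K36me3 and H3K27me3 lists of HisC showed nearly equal ratios.

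Over all chromosomes, w1118 H2BK16ac differed in direction from HisC. Its list had 9668 peaks over 9.74 Mb earlier and 13436 peaks over 11.8 Mb later, a log2 ratio of 0.27. In w1118, 3881 peaks or 40.1% were lost and 7500 or 55.8% gained. H2AK9ac in HisC had 11670 and 11902 peaks over 10.2 and 10.8 Mb, a log2 ratio of 0.09, with 39.7% lost and 41% gained. Its libraries were unequal in number, 2 earlier and 3 later, and whether this alters the peak counts was not tested. The shares of lost peaks were thus close in the 3 comparisons, between 39.2% and 40.1%, and the shares of gained peaks ranged from 35% to 55.8%. No test of these differences was possible with 1 list per group.

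Kept H2BK16ac peaks were shared with other marks far more often than lost or gained ones. The H2AK9ac list of 4.5 to 5 h met 77.4% of kept, 41% of lost and 28.5% of gained peaks. At 5.5 to 6 h it met 72.7%, 35.5% and 31.5%. For H3K27ac at the earlier age the shares were 50.1% of kept, 21.2% of lost and 23.4% of gained peaks, and for H3K4me3 47.8%, 16.8% and 19.2%. Lost peaks stood above gained peaks for H2AK9ac and for H3K27me3, which met 28.8% of lost and 21.1% of gained peaks at the earlier age. Gained peaks stood slightly above lost ones for H3K27ac, H3K4me3 and H3K36me3. That order was not seen on the X, which holds more of the gained peaks. There, the gained and lost shares at the earlier age were 29.1% and 29.1% for H3K27ac, 22.5% and 23.3% for H3K4me3, and 32.3% and 35.4% for H3K36me3. On the autosomal arms they were 21.9% and 20.3%, 18.3% and 16.1%, and 23.4% and 22.4%. Of gained peaks 25.6%, of lost peaks 18.7% and of kept peaks 3.1% met none of the 10 other HisC lists of the 2 ages.

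A wide peak has more chance to meet another list, so the shares were also taken among peaks of at least 400 and under 800 bp alone. There H2AK9ac at the earlier age met 69.0% of kept, 43.2% of lost and 31.3% of gained peaks. H3K27me3 met 39.5%, 29.2% and 21.0%. The order of the classes for these marks was the same as over all widths. In w1118, the H2BK16ac list of 4.5 to 5 h met 31.9% of lost and 22.8% of gained peaks, and that of 5.5 to 6 h met 41.2% and 35.5%. Of lost peaks 44.9% and of gained peaks 53.7% met neither w1118 list, against 20.5% of kept peaks.

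**Figure D3:**
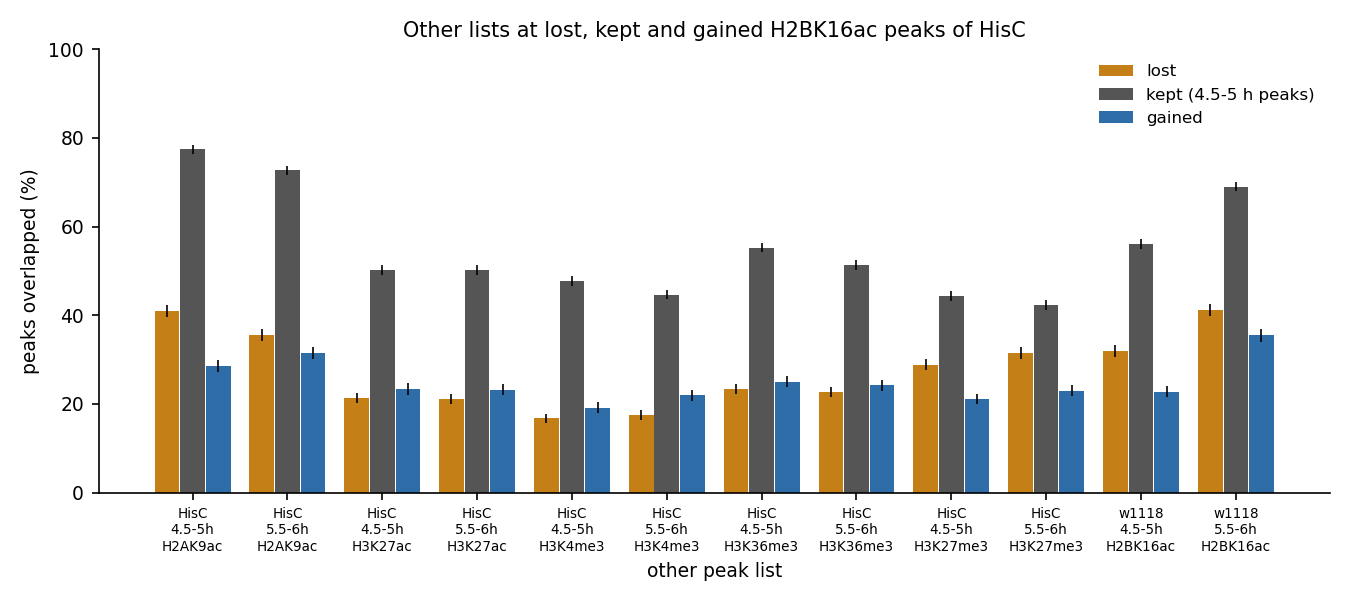
Share of lost, kept (as listed at 4.5 to 5 h) and gained H2BK16ac peaks of HisC (%, y axis) that overlap each other peak list (x axis), with 95% exact binomial intervals that cover counting error only. Kept peaks are highest for every list shown, from 42.4% to 77.4%, and lost peaks are above gained peaks for H2AK9ac, H3K27me3 and w1118 H2BK16ac.

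At genes, a protein-coding gene was called marked when a peak reached to within 500 bp of its start or end, and its level was the number of bp covered in the windows of 1000 bp around both ends. A level of 0 bp means that no peak was called there. The call and the level use different windows, so some lost genes had a higher level later and some gained genes a lower one. The muscle gene Mlc2, for example, was called lost with 289 bp earlier and 324 bp later. Among 13946 genes, 4780 were marked at 4.5 to 5 h and 4470 at 5.5 to 6 h. The mark was lost at 1958 genes (14% of all genes and 41% of those marked earlier) and gained at 1648 (11.8% of all and 36.9% of those marked later). It was kept at 2822 genes (20.2%), and 7518 (53.9%) had it at neither age. With the earlier list cut to as many peaks as the later, 1892 genes were lost and 1704 gained. With it cut to its 7820 widest peaks, 1342 were lost and 2266 gained. Such a cut can only lower losses and raise gains, so that reversed order does not show a dependence on list length. Of X genes, 382 were marked earlier and 507 later, with 153 lost and 278 gained, so 54.8% of the later marked X genes were gained, against 34.5% on the autosomal arms.

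Genes that gained the mark carried promoter marks more often than genes that lost it. H3K4me3 at 3.5 to 4 h, before both H2BK16ac lists, was present at 58.3% of gained genes (95% interval 55.8 to 60.6%), 46.4% of lost genes (44.1 to 48.6%), 56.1% of kept genes and 37.7% of genes with H2BK16ac at neither age. H3K27ac at 4.5 to 5 h was present at 43.2% of gained, 35.1% of lost and 52.4% of kept genes. The Polycomb mark had the other order, with H3K27me3 at 16.1% of gained, 24.3% of lost and 40.5% of kept genes at 4.5 to 5 h. H2AK9ac was at 34.1% of gained genes earlier and 44.3% later, while at lost genes it was at 46.4% at each age. The intervals treat genes as independent and cover counting error only. These gene shares were not taken by chromosome, and the X had 278 gained and 153 lost genes.

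Part of the genes that changed here changed alike in the other comparisons. Of the 1648 gained genes, 415 (25.2%) also gained the mark in w1118, where they made up 15.3% of the genes gained and where 19.5% of all genes gained it. Genes kept or lost here gained it in w1118 at nearly the same shares, 24.9% and 25.5%, so that share was not particular to gained genes. Of the 1958 lost genes, 320 (16.3%) also lost it in w1118, where they made up 21.1% of the genes lost, and 500 (25.5%) gained it there. Of all genes, 10.9% lost the mark in w1118, so the lost genes were above the all-gene share both for losses and for gains in w1118. Of kept genes 12.8% and of gained genes 13.6% lost it there. For H2AK9ac in HisC, 416 of the gained genes were gained there too, which is 25.2% of the genes here and 18.5% of the genes there. Of all genes 16.1% gained H2AK9ac, of lost genes 20.2%, of kept genes 15.3% and of genes with H2BK16ac at neither age 13.4%.

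The 10 lost genes with the largest differences had 2268 to 2886 bp covered at 4.5 to 5 h and 0 to 315 bp at 5.5 to 6 h. Rtca, which encodes an RNA 3′-phosphate cyclase (X, 2072413 to 2074890), had 2886 bp earlier and 0 bp later. Its lost peak spanned 3364 bp (X, 2071988 to 2075351) and held the whole gene. H2AK9ac was still listed at Rtca at the later age, with 2755 bp earlier and 1846 bp later. TfIIB, the general transcription factor that bridges TBP and RNA polymerase II (2L, 10431338 to 10433116), had 2656 bp and then 0 bp, and its H3K27ac level was 426 bp and then 1088 bp. In w1118, TfIIB was listed at 0 bp of H2BK16ac at both ages.

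At some of these genes some other marks were lower later too, and at others they were not. The mitochondrial translation factor gene mEFTu2 (2R) went from 2435 bp to 0 bp. There H2AK9ac (743 bp to 0 bp) and H3K27ac (450 bp to 0 bp) were lower later too, while H3K4me3 covered 502 bp at each age. Pmvk, the phosphomevalonate kinase of isoprenoid synthesis (2L), had 2542 bp and 218 bp. At Pmvk, H2AK9ac had the other direction, with 350 bp earlier and 1267 bp later. IntS8, a subunit of the Integrator complex that processes small nuclear RNAs (2R), had 2268 bp and 73 bp, and Sardh, the sarcosine dehydrogenase (2R), had 2327 bp and 54 bp. Rcd5, a centriole and chromatin factor (3L), had 2608 bp and 315 bp, while its H3K27ac (2177 and 2485 bp) and H3K4me3 (2681 and 2727 bp) covered most of the window at both ages. The other named lost genes were Tengl2, laza and yellow-e3, with 2418 to 2628 bp earlier and 0 to 204 bp later. In each of these 3, w1118 had more covered bp of H2BK16ac later than earlier, for example 1280 and 2552 bp at yellow-e3.

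The 10 gained genes with the largest differences had 0 to 376 bp covered earlier and 1976 to 2813 bp later, and 3 of them were on the X. The largest was at sqh, the regulatory light chain of nonmuscle myosin II that drives cell shape change in the embryo (X, 6223061 to 6225140), with 0 bp and then 2813 bp. The gained peak was 3375 bp wide (X, 6223248 to 6226622) and also reached dtn, which had 0 bp and 1976 bp, so the pair share 1 peak. At sqh the other marks were already listed earlier, with H3K27ac at 1443 and 1620 bp and H3K4me3 at 1725 and 2044 bp. In w1118, sqh had 315 bp and then 1317 bp. Pop1, a protein of RNase P and RNase MRP (X, 5622648 to 5625493), had 353 bp and 2409 bp, with H3K27ac at 889 and 1960 bp.

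Syx5, a SNARE of the Golgi (2L), had 33 bp earlier and 2378 bp later. The nucleolar GTPase gene Non1 (2R) had 376 bp and 2310 bp, with H2AK9ac at 149 bp and 1695 bp. At both genes w1118 was listed at 0 bp at both ages. The neighbouring genes cup, Spn27A and cort lie together on 2L (6663664 to 6676635) and share much of their windows. Here cup, a translational repressor of the oocyte, had 63 bp and then 2000 bp, and cort, a meiotic activator of the anaphase-promoting complex, had 336 bp and then 2401 bp. The serpin gene Spn27A had 0 bp and 2000 bp. In w1118 the direction at these genes was the reverse, with cup at 2000 bp and then 0 bp and cort at 2317 bp and then 0 bp. The developmental gene sbb (2R) had 0 and 2000 bp, and the odorant-binding protein gene Obp83ef (3R) 0 and 2202 bp. At Obp83ef, H2AK9ac had 2035 bp earlier and 52 bp later.

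**Figure D4:**
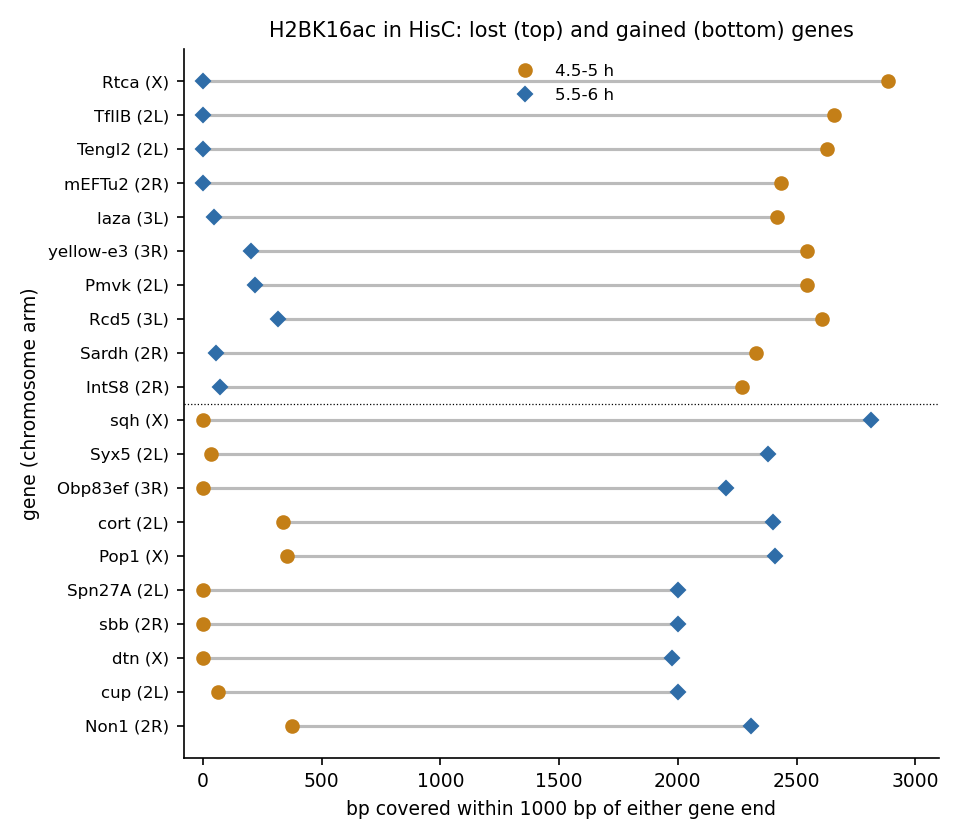
H2BK16ac of HisC, as bp covered within 1000 bp of either gene end (x axis), at 4.5 to 5 h (circles) and 5.5 to 6 h (diamonds), for the 10 lost and 10 gained named genes (y axis, chromosome arm in brackets) with the largest difference, 1 list per age. Lost genes reach 2886 bp at Rtca in the earlier list and gained genes 2813 bp at sqh in the later list.

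Genes that kept the mark could still differ widely in covered length. HDAC3, a histone deacetylase (3R), had 3498 bp earlier and 806 bp later, and Mkp, a phosphatase of MAP kinases (3L), 3420 bp and 1370 bp. The neighbouring fatty acid elongase genes Elo68alpha and Elo68beta (3L) had the opposite direction, with 368 and 2870 bp at Elo68alpha and 1204 and 3024 bp at Elo68beta. The cuticle protein gene TwdlC (3R) had 495 and 2458 bp. High levels at both ages were found at the gustatory receptor gene Gr59d (2R), with 2918 and 2860 bp, and at bw, an eye pigment transporter (2R), with 2521 and 2991 bp. At Gr59d no H3K27ac or H3K4me3 was listed at either age, while H2AK9ac covered 2278 and 1402 bp.

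The widest lost peaks lay on 3 autosomal arms and the X, and the widest gained ones largely on the X. The widest lost peak spanned 3782 bp within MED23, a Mediator subunit (2R, 22889516 to 22893297), and another of 3510 bp lay within Rme-8, a J-domain protein of endosomes. The widest gained peak spanned 4669 bp in the mucin gene Muc12Ea (X, 14277658 to 14282326), which had 0 and 1077 bp near its ends. One of 3091 bp lay at r (rudimentary), the enzyme that starts pyrimidine synthesis (X). A gained peak of 3257 bp lay inside Trim9, a ubiquitin ligase of axons (2L). Of the 5 widest gained peaks 3 were on the X.

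Among patterning genes of the early embryo, the pair-rule and gap lists had larger kept shares (66.7% and 45.5%) than all genes (20.2%), and the Hox and cellularization lists (25% and 18.2%) were near it. Over all genes, 14% lost and 11.8% gained the mark. Of the 9 genes listed as pair-rule, 6 kept it, 2 gained it (Ten-m and odd) and 0 lost it. Their median was 406 bp earlier and 1285 bp later, against 113.5 bp and 31 bp over all genes. The later median is the level of Ten-m itself, which had 0 bp earlier. The pair-rule gene h (hairy) found no match in the gene table and is not in the list. The paired-domain gene prd (2L) had 1123 and 1914 bp, and eve (2R), a homeodomain repressor, 1128 and 1451 bp. Of 11 gap genes, 5 kept, 2 gained and 1 lost it, and the terminal regulator tll (3R) had 1696 and 1726 bp. The gained gap genes were oc (0 and 576 bp) and gt (0 and 549 bp), both on the X. Of 12 segment polarity genes, 4 kept, 1 gained and 2 lost it, with the secreted signal hh (3R) at 899 and 0 bp and en (2R), a homeodomain repressor, at 360 and 1177 bp. Of 8 Hox genes, 2 kept, 1 gained (pb) and 1 lost it, and the lost one was Antp, at 260 and 0 bp. Of 11 genes of early cellularization, 2 kept it, among them bnk (3R, 1393 and 1325 bp), 2 gained and 1 lost it.

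Gut, neuroblast timing and tracheal genes form short lists, read against 20.2% kept, 11.8% gained, 14% lost and 53.9% at neither age over all genes. Over all 13946 genes, 4066 had more covered bp later. Of 10 endoderm and gut genes, 5 kept the mark, 2 gained it and 0 lost it, 3 had it at neither age, and 7 had more covered bp later. Among them fkh, a forkhead factor of the gut ends (3R), had 1515 and 2340 bp, GATAe of the midgut (3R) 1281 and 1798 bp, and drm of the foregut (2L) 135 and 1496 bp. All 3 of 7 neuroblast timing genes that were marked earlier lost it, pdm2 (791 and 322 bp), cas (600 and 176 bp) and hb (281 and 0 bp). Over all genes 41% of those marked earlier lost it. The levels of the 3 were low from the start. Of 9 tracheal genes 4 kept it, and 0 gained or lost it. Kept members still differed in level, with vvl (3L) at 1388 and 446 bp and kni (3L) at 254 and 1042 bp.

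Genes of the nervous system, mesoderm and dorsal ectoderm showed changes both ways, in short lists of 13 to 19 genes. Over all genes 20.2% kept, 11.8% gained and 14% lost the mark. Of 19 neuroectoderm and neuroblast genes, 5 kept, 3 gained and 2 lost the mark. The neuroblast factor ase (X) had 0 and 1033 bp, wor (2L) 706 and 1573 bp, and ind of the intermediate column (3L) 891 and 0 bp. Of 13 neuron and glia genes, 2 kept, 2 gained and 2 lost it, and the RNA-binding neuronal gene elav (X) had 1329 and 0 bp in HisC while it had 348 and 2000 bp in w1118. Of 14 early mesoderm genes, 2 kept, 2 gained and 3 lost it. Here zfh1, a zinc finger repressor (3R), had 0 and 1389 bp, bap of the visceral mesoderm (3R) 1133 and 2294 bp, and twi, the mesoderm determinant (2R), 1844 and 1567 bp. Of 14 muscle structure genes, 1 kept, 2 gained and 2 lost it, and the giant titin-like gene sls (3L) had 0 and 840 bp. Of 16 genes of the dorsal ectoderm and amnioserosa, 5 kept, 1 gained and 2 lost it, and 7 had fewer bp later. Over all 13946 genes, 5030 had fewer. Doc2 and Doc3, neighbouring T-box genes of the amnioserosa (3L), went opposite ways, with 2077 and 482 bp at Doc2 and 301 and 1010 bp at Doc3. The 14 genes listed as Notch targets include parts of the pathway itself, such as N, Su(H) and the ligand gene Ser. Of these 14, 13 had the mark at neither age (92.9%, against 53.9% of all genes), the kept one being Ser. Many of the others are E(spl) genes that lie close together on 3R, so they are not separate observations.

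Genes of chromatin and of the cell cycle, listed because the histone supply is changed in these embryos, had no common direction. Of 19 genes of histone variants and chaperones, 5 lost, 3 gained and 3 kept the mark, that is 26.3% lost, 15.8% gained and 15.8% kept, against 14%, 11.8% and 20.2% of all genes. The gained ones were dre4, the FACT subunit Spt16 (3L), with 0 and 1547 bp, the H3-H4 chaperone gene asf1 (3L), with 63 and 1285 bp, and Caf1-180 of the CAF-1 complex (X), with 0 and 476 bp. Of 22 acetyltransferases, deacetylases and bromodomain genes, 5 gained (22.7%), 2 lost (9.09%) and 4 kept it (18.2%). The gained ones included the acetyltransferase genes Tip60 (X, 0 and 957 bp) and chm (2L, 0 and 988 bp) and the sirtuin gene Sirt4 (X, 0 and 1314 bp). Of 37 cell cycle genes, 6 lost (16.2%), 4 gained (10.8%) and 6 kept it (16.2%), close to the shares over all genes. The mitotic kinase gene polo (3L) had 827 and 411 bp, geminin, an inhibitor of replication licensing (2R), 506 and 0 bp, and Cdk2 (3R) 2000 and 813 bp. Of 12 genes of apoptosis and DNA damage, 2 lost (16.7%), 1 gained and 2 kept it, also near those shares, and the lost ones were the caspase genes Drice (3R, 1567 and 0 bp) and Dronc (3L, 559 and 0 bp). None of the 111 replication-dependent histone genes was marked at either age, and their cluster is the deleted region.

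Genes of protein synthesis and breakdown showed changes both ways. Of 92 ribosomal protein genes, 22 kept (23.9%), 12 gained (13%) and 8 lost it (8.70%), against 20.2%, 11.8% and 14% of all genes, with RpS25 (3R) at 1801 and 0 bp, RpL8 (3L) at 0 and 1414 bp and RpL4 (3R) at 1901 and 2035 bp. Of 48 proteasome genes, 17 kept (35.4%), 3 gained (6.25%) and 10 lost it (20.8%), and 37.0% of those marked earlier lost it against 41% of all such genes. The ubiquitin receptor gene Rpn13 (2R) had 0 and 1081 bp, and the testis subunit gene Prosalpha6T (2L) 946 and 0 bp. Of 16 heat shock genes, 2 kept, 3 gained (18.8%) and 0 lost it, and Hsp68 (3R) had 314 and 1158 bp. Of 9 maternal germline genes, 1 gained it, the piRNA factor aub (2L), at 0 and 250 bp, and 8 had it at neither age (88.9%, against 53.9% of all genes).

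Chemoreceptor genes, which serve taste and smell in larvae and adults, were marked more often than genes in all. Of 179 such genes, 94 were marked earlier and 68 later, and 52 kept the mark (29.1%, against 20.2% of all genes). It was lost at 42 (23.5%, against 14%) and gained at 16 (8.94%, against 11.8%). Of those marked earlier 44.7% lost it, near the 41% over all genes, and of those marked later 23.5% had gained it, against 36.9%. Covered length was lower later in 91 and higher in 39, while over all 13946 genes it was lower in 5030 and higher in 4066. The median was 415 bp earlier and 0 bp later, against 113.5 bp and 31 bp over all genes. Ir60b (2R) had 2178 and 0 bp, Or98b (3R) 1713 and 0 bp, and Or2a (X) 1611 and 0 bp, while Or59c (2R) had 2426 and 2662 bp. Of 97 cuticle protein genes, 28 kept (28.9%), 12 gained (12.4%) and 16 lost it (16.5%), with Cpr47Ef (2R) at 0 and 1410 bp and Cpr66D (3L) at 1283 and 0 bp. The shares are descriptions of these lists, whose members often lie beside each other and can share a peak.

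**Figure D5:**
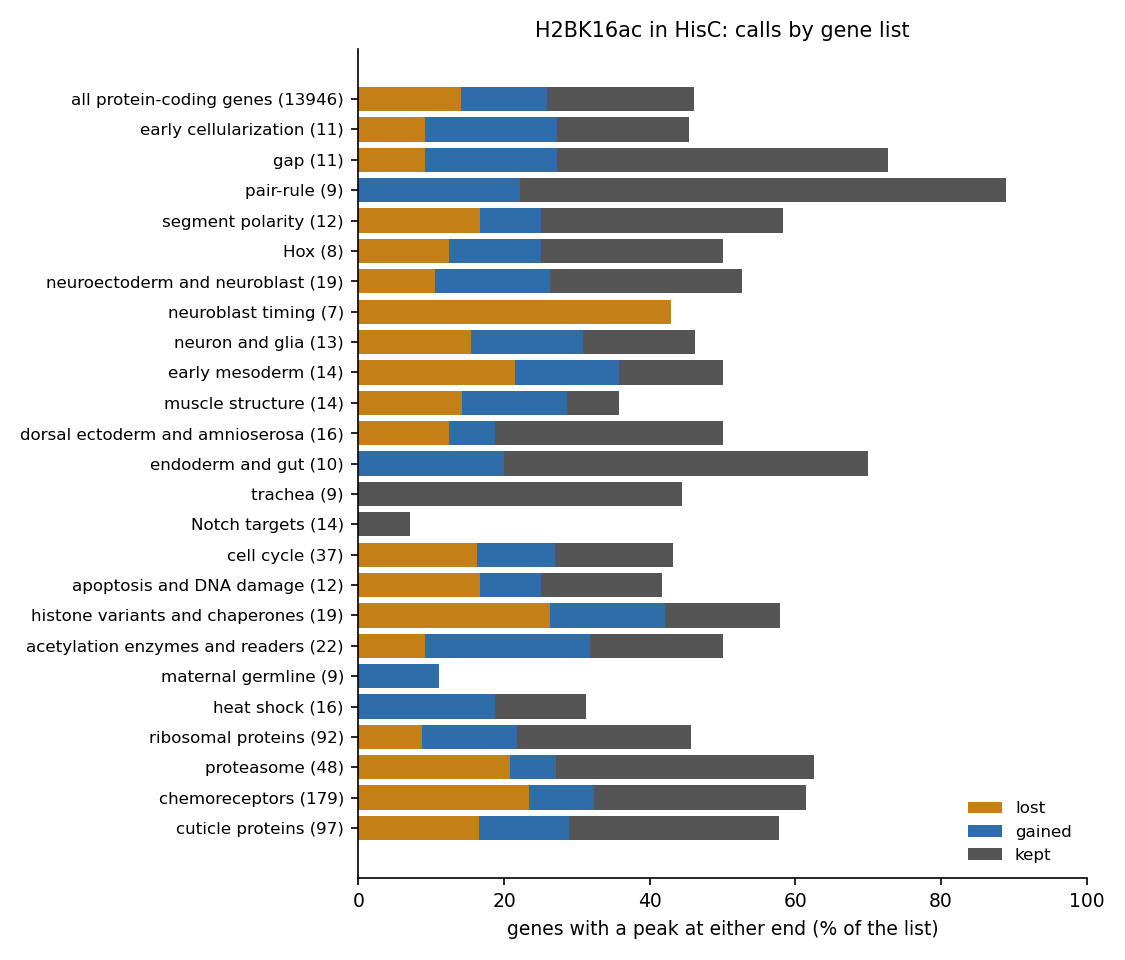
Share of the protein-coding genes of each list (%, x axis; y axis, list with its number of genes) that lost, gained or kept H2BK16ac in HisC, with all 13946 genes in the top bar; the remainder of each bar had the mark at neither age, and the replication-dependent histones, all unmarked, are not drawn. Over all genes 14% lost, 11.8% gained and 20.2% kept the mark, and the kept share is 66.7% for the 9 genes listed as pair-rule and 29.1% for the 179 chemoreceptors.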

How the data were processed

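The deposited files give, for each group, peak positions in bp on dm6 (build per the labels) as chromosome, start and end, with no score; these units are positions and not counts or signal. Per the submitters' processing notes, the tools were Bowtie2 2.3.4.2, cutadapt 1.17, deepTools 3.3.1, SAMtools 1.9 and Trim Galore 0.6.6. The peak caller, its threshold and the joining of the 2 libraries are steps not given in the sources used here. The names of the lists state that they are of the broad type for H2BK16ac and that blacklisted regions were removed. The name of the H3K4me3 list of 3.5 to 4 h adds a further exclusion that no source used here explains. Numbers in those names (5 h, 6 h) were read as the labels' 4.5 to 5 h and 5.5 to 6 h. The number of peaks called can depend on sequencing depth, which is unknown.

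Overlaps, covered lengths and intervals were computed in Python 3.11.15 with numpy 2.4.6, pandas 2.3.3 and scipy 1.17.1, and the steps were tested on simulated data. Kept means at least 1 bp of overlap. Genes came from a RefSeq table of the release 6 assembly with no strand, so windows of 500 bp (call) and 1000 bp (level) were set around both ends. Named genes were the 10 lost and 10 gained genes with the largest difference in covered bp, the 5 kept genes with the largest difference in each direction, the 5 most covered, the leading members of each gene list and the genes nearest to the 5 widest lost and gained peaks, without genes that have only a CG or CR number. The genes given in the text are taken from these. The members and lists were chosen with earlier results of these data known. Alternatives changed the overlap, the width minimum, the windows and the genes used. Libraries of other groups without a list were not analysed here.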

Additional observations from a re-analysis of the deposited data

Results flagged for a closer look

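Covered length of H2BK16ac had opposite directions in the genotypes: the log2 ratio of 5.5 to 6 h over 4.5 to 5 h was −0.24 in HisC and 0.27 in w1118. This difference was not tested, since each group has 1 list.

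Within HisC, the log2 ratio was −0.36 on 2L, −0.34 on 2R, −0.23 on 3L and −0.28 on 3R, while it was 0.31 on the X. This difference between chromosomes was not tested either. The X kept the higher ratio when an equal number of the widest peaks was used (0.33 on the X, −0.28 on the autosomal arms).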

How the results depend on the processing

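Of 60 values under alternatives, 46 stayed within the tolerance used (counts within 1.5 times the reported one) and 14 moved. No single log2 ratio changed sign. With an overlap of at least 50% of a peak, 7500 peaks were lost and 6158 gained. Genes kept numbered 1533 with windows of 250 bp, 5381 with 1000 bp and 5588 over the whole gene span. With peaks of at least 500 bp only, 2732 peaks were gained and 4863 earlier and 4919 later peaks were kept. With an equal number of the widest peaks, the log2 ratio of covered length was −0.22 in all, 0.33 on the X and −0.28 on the autosomal arms, and that of median width −0.21. The earlier list was also cut, an alternative chosen after seeing the data, to its 7820 widest peaks, which have the summed length of the later list. Then 2147 peaks were lost and 6335 gained, and 1342 genes were lost and 2266 gained. With an equal number of the widest peaks, losses stayed in excess, with 4609 peaks lost and 4463 gained, and 1892 genes lost and 1704 gained. Removing earlier peaks alone can only lower losses and raise gains, so the reversal under the larger cut does not show a dependence on list length. Under that larger cut the log2 ratio was 0.61 on the X and −0.066 on the autosomal arms. That of median width was −0.75, as the cut itself takes out narrow peaks. Joining peaks less than 500 bp apart changed no value, since no peaks lay that close. No paired analysis was possible because each group has 1 list with no replicate in it, and for the same reason no library could be left out. Depth, which is unknown, limits how far the fewer and narrower later peaks can be read as less of the mark.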

Other observations

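The Osiris genes, a cluster of insect genes for membrane proteins that are known from cuticle-forming cells, were looked at after a wide lost peak of 3510 bp was seen inside Osi17 (3R, 6321100 to 6324609, dm6). Over the 22 Osiris genes of the cluster (3R, 6173549 to 6341424), H2BK16ac of HisC covered 30968 bp in 28 peaks at 4.5 to 5 h and 14525 bp in 20 peaks at 5.5 to 6 h. The mark was lost at 5 of these genes, gained at 0 and kept at 14. Of the 19 marked earlier 26.3% lost it, against 41% of all such genes. H2AK9ac of HisC covered 19043 bp earlier and 11333 bp later. In w1118 the direction was the reverse for both acetylations, with 9604 and 22772 bp of H2BK16ac and 10348 and 21295 bp of H2AK9ac. H3K27me3 lay over the same cluster in HisC, with 24705 bp earlier and 33711 bp later, and covered 731 and 846 bp in w1118. H3K4me3 of HisC covered 1473 and then 0 bp there. Each value is from 1 list, with no test.

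Genes of dosage compensation, by which flies adjust transcription of the X, were also looked at after the X had been seen to differ. Levels of H2BK16ac in HisC within 1000 bp of the gene ends were low at the RNA genes, with 173 and 476 bp at roX1 and 229 and 0 bp at roX2. Over all 13946 protein-coding genes, 4066 had more covered bp later and 5030 fewer. Of the 8 protein genes, 5 had more covered bp later, 2 fewer and 1 none at either age. They had 723 and 769 bp (msl-2), 97 and 653 bp (msl-3), 376 and 326 bp (msl-1), 390 and 626 bp (mof), 346 and 581 bp (mle), 0 and 112 bp (Sxl), 249 and 100 bp (Clamp) and 0 and 0 bp (Top2) at the earlier and later age. Each is a single value per age, with no test.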
